A study of Rattus norvegicus with 12 samples.

Results

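The piRNA-annotated small RNAs described here are the entries of the count tables whose names start with DQ and contain piR, and which hold more than 10 reads in all in the water and EGME libraries or in the oil and CBZ libraries. They number 53 of the 3655 features counted in the series. Of these, 48 are members in the first set of libraries and 41 in the second, with 36 in both, 12 in the first alone and 5 in the second alone. The series looks for small RNAs in serum exosomes that mark injury of the testis, with 12 libraries, 3 in each of 4 groups. All rats were male Sprague-Dawley animals of 9 weeks, and blood was taken 24 h after a single oral dose. The EGME group received 2000 mg/kg of ethylene glycol monomethyl ether, a glycol ether solvent, in water, and the water group received that vehicle (10 mL/kg). The CBZ group received 400 mg/kg of the compound labelled CBZ in corn oil, and the oil group received corn oil alone (5 mL/kg). Vesicles were pelleted at 208000 g from 2.7 mL of serum, a step that also brings down protein particles that carry RNA.

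Piwi-interacting RNAs are small RNAs somewhat longer than miRNAs. They are bound by the Piwi branch of the Argonaute proteins and are cut from long single-stranded precursors without Dicer. They are best known from the germ line, where they keep transposons silent, and in the rat testis they are made in very large amounts by meiotic and early haploid germ cells. Entries in piRNA collections are catalogued sequences, and fragments of tRNA, rRNA and other abundant RNAs are known to be among them, so the name alone does not show that a read was bound by a Piwi protein. The tables used here give no read sequence or read length against which the name could be checked.

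Most of the piRNA signal lay in 4 entries. Over the 12 libraries, each with equal weight, piR-63429 held 34.7% of the piRNA counts, piR-63455 26.9%, piR-63454 25.3% and piR-64122 11.4%. The fifth, piR-65377, held 0.543%. All members outside the first 4 together made up between 0.522% of the piRNA counts in oil library 1 and 3.41% in oil library 2. At the other end, 21 of the 48 members in the water and EGME libraries and 17 of the 41 in the oil and CBZ libraries had at most 30 reads over all 6 libraries. At the limit of 10 reads, piR-146792, piR-163215 and piR-182461 had 11 reads in the first table and piR-146488, at 10, was just outside. In the second table piR-63298 had 12 reads and piR-163215, at 10, was just outside. A read was present in every one of the 6 libraries for 41 members in the first table and 30 in the second.

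Several libraries stood apart. Assigned counts ran from 608892 to 1235814 per library with water and EGME and from 196460 to 598200 with oil and CBZ. Taken as a floor, since a count of 0 makes a higher true level unlikely, 3 counts correspond to 2.43 to 15.3 CPM (counts per 1000000 assigned counts). Oil library 2 was the shallowest and held 26.7% rRNA, against 1.67% to 5.03% in the other libraries of its table. EGME library 2 was the deepest and had the lowest scaling factor (0.684, against 0.956 to 1.15). Of the 41 members in the oil and CBZ libraries, 19 had their highest CPM in oil library 2. Some of them, such as piR-64556, passed the limit on summed reads only through that library. Of the 48 in the water and EGME libraries, 24 had their lowest in EGME library 2. Results that rest on these libraries are given with and without them.

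A long tail of rare entries separated the 2 tables. Below the limit, the first table listed 1053 further piRNA entries, 823 of them with a single read, and the second listed 100, with 73 single reads. Entries with a single read summed to 76.9 to 258 CPM in the water and EGME libraries and to 8.36 to 65.7 CPM in the oil and CBZ libraries. They were highest in EGME library 3 (258) and EGME library 1 (238), while EGME library 2 (76.9) was below every water library (119 to 154). Among the 16 miRNAs listed for germ cells of the testis, such as miR-34c-5p, miR-741-3p and miR-871-3p, 11 had a read in the first table and 8 in the second. Their summed level was 13.4 to 24.6 CPM with water, 13.8 to 32.3 with EGME, 3.34 to 10.2 with oil and 4.87 to 9.85 with CBZ. With oil and CBZ these sums rested on 2 to 4 reads per library, at or near the floor of 3 counts. With water and EGME they rested on 13 to 28 reads. The names miR-449c-5p, miR-202-3p, miR-742-3p, miR-880-3p and miR-883-3p were listed in neither table. The longer tail, the higher germ cell miRNAs and the greater depth were thus in the same table. Within each table the groups overlapped, and the part of germ cells or of depth in the tail was not tested. In serum, fewer vesicles from a cell type and less RNA in each cannot be told apart.

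The first question is whether the piRNA share of the exosome RNA differed with either treatment. The members took 6.33%, 8.93% and 9.78% of all counts in water libraries 1, 2 and 3. With EGME they took 6.96%, 10.1% and 8.15%. The group means were 8.35% ± 1.80 with water and 8.39% ± 1.56 with EGME (SD, n = 3 libraries each), a difference smaller than the spread between libraries (exact two-sided permutation test, p = 1, where 0.1 is the lowest possible). The EGME difference depended on the total. With the most abundant feature left out of the total it was 3.64 percentage points (exact permutation p = 0.1). With near-identical features counted once it was -2.52 (exact permutation p = 0.4). In the other table the share was 27.5%, 11.5% and 12.6% with oil and 17.3%, 13.9% and 12.2% with CBZ. Oil library 1 stood far above the other 2, and all CBZ libraries lay between it and oil library 2. The means of 17.2% ± 8.95 and 14.4% ± 2.60 differed by less than the spread (exact permutation p = 0.9). Without oil library 1 the difference turned, from -2.76 to 2.40 percentage points. With piR-63429 left out of the share it was -4.57 (exact permutation p = 0.1). Every CBZ library then lay below every oil library, but CBZ library 1 only barely below oil library 2, the shallowest. Counting error was small beside this spread. The exact (Clopper-Pearson) 95% interval, which covers counting error only, was 11.4% to 11.7% in the shallowest library, oil library 2.

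**Figure D1:**
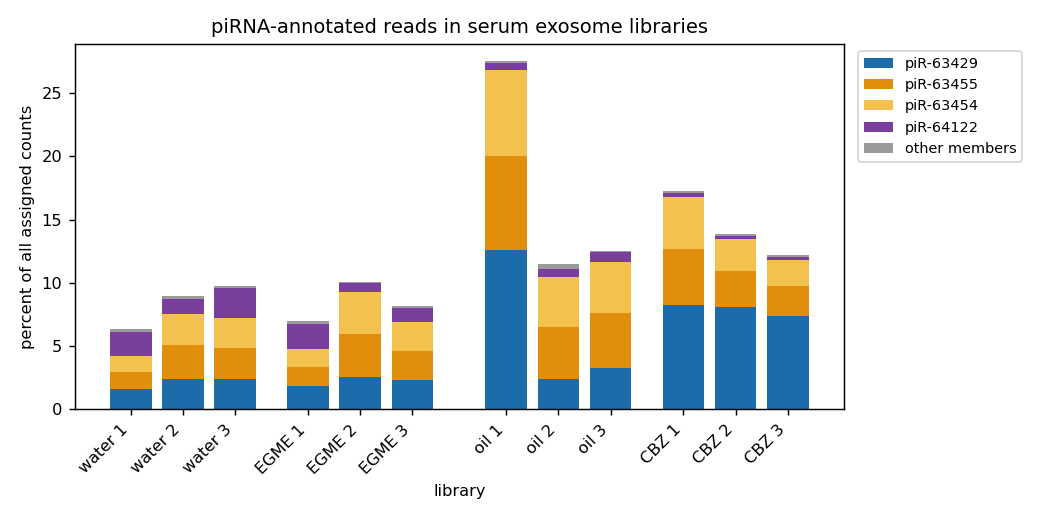
Percent of all assigned counts (vertical axis) in each of the 12 libraries (horizontal axis) that fell on piRNA entries, split into the 4 most abundant entries and all other members. The bars of the water and EGME libraries reach between 6.33% and 10.1%, and oil library 1 stands above all others at 27.5%.

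Read against miRNAs in place of all counts, the members gave 0.247, 0.509 and 0.542 reads per miRNA read with water and 0.265, 0.651 and 0.290 with EGME. In the other table this ratio was 1.87, 0.435 and 0.568 with oil and 0.756, 0.799 and 0.586 with CBZ. Groups overlapped in both tables. The levels with oil and CBZ were above those with water and EGME by share of all counts in every library, 11.5% at the lowest against 10.1% at the highest. The tables were counted and deposited separately, so the vehicle and the table cannot be told apart and this difference was not tested.

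The entry with the highest mean share over the 12 libraries was piR-63429. It took 1.601%, 2.43% and 2.42% of all counts with water and 1.87%, 2.53% and 2.29% with EGME. In these libraries together it had fewer reads than piR-63455, at 121210 against 130319. With oil it took 12.6%, 2.44% and 3.25%, and with CBZ 8.28%, 8.08% and 7.36%. Water and EGME were alike in range, whereas the oil libraries were split, with libraries 2 and 3 near the water level and library 1 above all others. The entry piR-63455 took 1.35%, 2.62% and 2.46% with water and 1.48%, 3.42% and 2.36% with EGME. Its share was 7.45%, 4.07% and 4.37% with oil and 4.43%, 2.88% and 2.36% with CBZ, where CBZ library 1 overlapped the oil range.

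Its neighbour in number, piR-63454, followed it closely. It took 1.25%, 2.51% and 2.38% with water, 1.43%, 3.31% and 2.26% with EGME, 6.77%, 3.96% and 4.04% with oil and 4.07%, 2.51% and 2.13% with CBZ. The ratio of piR-63455 to piR-63454 stayed between 1.03 and 1.15 in all 12 libraries. How a read that matches several entries was counted is not given in the sources used here, so the 2 neighbours may rest partly on the same reads and are not independent measurements. The fourth abundant entry, piR-64122, had another pattern. It took 1.94%, 1.19% and 2.36% with water and 2.00%, 0.725% and 1.11% with EGME, but 0.562%, 0.650% and 0.822% with oil and 0.339%, 0.244% and 0.201% with CBZ. Every CBZ library was below every oil library, and only EGME library 2 of the first table fell within the range of the oil libraries.

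The make-up of the piRNA counts gives each entry as a share of those counts alone. The share of piRNA counts held by piR-63429 was 45.8%, 21.2% and 25.9% with oil and 47.9%, 58.3% and 60.4% with CBZ. The groups did not overlap, though oil library 1 came within a few percentage points of CBZ library 1. The mean was 30.9% ± 13.1 with oil and 55.6% ± 6.70 with CBZ (SD, n = 3, exact permutation p = 0.1, the lowest that 3 against 3 allow). The difference of 24.6 percentage points ranged from 19.7 to 32.0 with any 1 library left out. The shares of the other 3 abundant entries were lower with CBZ. The share of piR-63455 was 32.4% ± 4.63 with oil and 21.9% ± 3.29 with CBZ, that of piR-63454 30.4% ± 5.15 and 19.7% ± 3.35, and that of piR-64122 4.75% ± 2.38 and 1.79% ± 0.157 (exact permutation p = 0.1 for each). These shares sum to nearly the whole and are not independent of one another. The main tests of shares and ratios were 14 exact tests, and the lowest Benjamini-Hochberg adjusted value among them was 0.28. Those of single entries were added after their values were seen, and those of the ratios were not among the planned tests. Exact tests with other totals, other sets of entries or a library left out were not part of this adjustment.

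With EGME the make-up of the piRNA counts overlapped with that of water. The piR-63429 share was 25.3%, 27.2% and 24.7% with water and 26.8%, 25.2% and 28.1% with EGME (p = 0.6 by the exact permutation test). The piR-64122 share varied most, at 30.6%, 13.4% and 24.1% with water and 28.7%, 7.21% and 13.6% with EGME (p = 0.5 by the exact permutation test). The 3 most abundant entries together held 75.1% ± 9.13 of the piRNA counts with water and 81.7% ± 12.1 with EGME (p = 0.4 by the exact permutation test). For the same 3 the values were 93.7% ± 3.34 with oil and 97.2% ± 0.0764 with CBZ (exact permutation p = 0.4), and the 3 CBZ libraries, at 97.2%, 97.2% and 97.3%, differed far less than the oil libraries, at 97.4%, 90.9% and 92.8%.

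**Figure D2:**
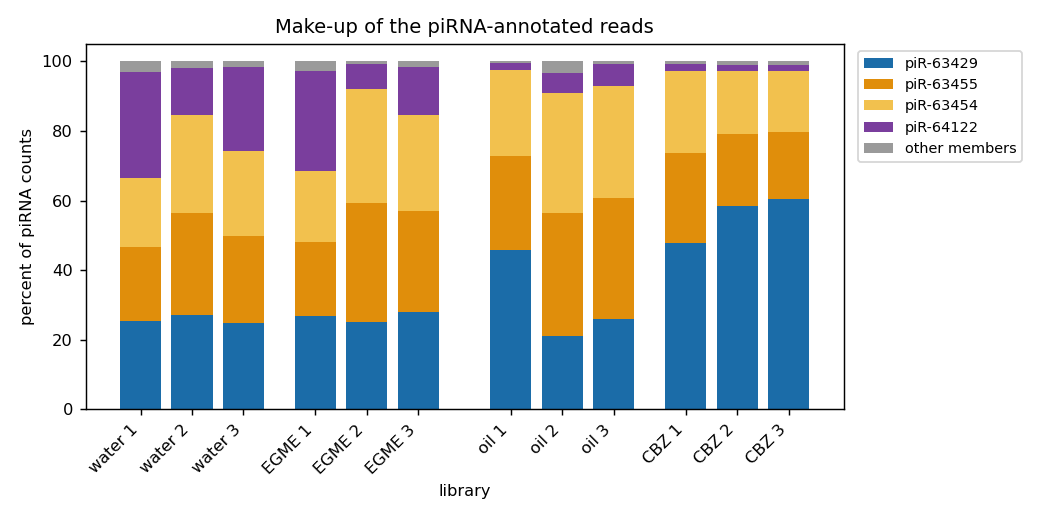
Percent of the piRNA counts (vertical axis) held by each of the 4 most abundant entries and by all other members in each of the 12 libraries (horizontal axis). The band of piR-63429 takes 47.9% to 60.4% with CBZ and 21.2% to 45.8% with oil, and the band of piR-64122 is widest in water library 1 (30.6%).

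Ratios within a library do not depend on how libraries are scaled. Reads of piR-63429 per read of piR-63455 were 1.69, 0.599 and 0.742 with oil and 1.87, 2.81 and 3.12 with CBZ. On the log2 scale the mean ratio was -0.14 ± 0.79 with oil and 1.34 ± 0.39 with CBZ, a difference of 1.48 (exact permutation p = 0.1). The water libraries averaged 0.04 ± 0.18 and the EGME libraries -0.05 ± 0.39 (exact permutation p = 0.9). Reads of piR-64122 per read of piR-63455 were 1.43, 0.456 and 0.960 with water, 1.35, 0.212 and 0.472 with EGME, 0.0755, 0.160 and 0.188 with oil and 0.0764, 0.0847 and 0.0851 with CBZ. By this ratio the oil and CBZ libraries overlapped, since oil library 1 lay below all CBZ libraries.

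**Figure D3:**
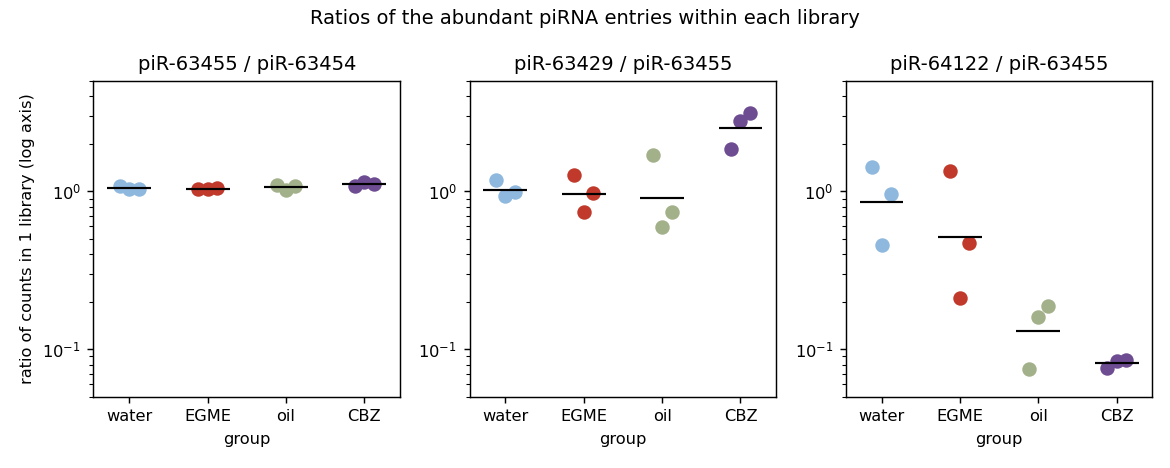
Ratio of the counts of 2 abundant piRNA entries within each library (vertical axis, log scale) for the 4 groups (horizontal axis), where points are libraries and bars are geometric means. The ratio of piR-63455 to piR-63454 stays between 1.03 and 1.15, while that of piR-63429 to piR-63455 reaches 1.87 to 3.12 with CBZ against 0.599 to 1.69 with oil.

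Across all features, EGME was compared with water by edgeR's quasi-likelihood test with scaling by trimmed mean of M-values (TMM) and Benjamini-Hochberg adjustment, and a feature was called at an adjusted p under 0.05. Of the 48 members, 20 passed the filter on low counts and 28 were left out by it. The test called 0 of the 20, and 0% of all 330 tested features. At an unadjusted p under 0.05 there were 4 of the 20 members, against 17.9% of all features. The DESeq2 Wald test called 1 member, against 5.45% of all features. By comparison limma on the authors' normalized values, fitted to all 48 members, called 0. Over all features limma called 0% on log2(normalized + 1) and 2.49% on log2(normalized + 5). Without the filter edgeR called 0 of the 48, and 0.366% of all features. The 20 members had a median log2 difference of 0.27 with 11 higher and 9 lower, against a median of -0.02 over all features. Without EGME library 2 the median was -0.22, against -0.07 over all features, and edgeR called 4 members, piR-62142 (1.39) and piR-87274 (1.49) as higher and piR-64201 (-1.70) and piR-63298 (-1.92) as lower, and 16.5% of all features.

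The lowest p among piRNAs for EGME was that of piR-64201. It had 71, 132 and 122 reads with water and 25, 48 and 33 with EGME, or 79.4, 136 and 142 CPM against 41.1, 38.8 and 38.0. On this plain scale the 3 EGME libraries lay close together and below every water library. On TMM-scaled CPM they were further apart, at 35.6, 56.8 and 33.7, and still below the water libraries at 73.8, 142 and 130. The log2 difference was -1.45 (SE 0.379, edgeR adjusted p = 0.0948). Its sign was the same in all 19 alternatives, and the adjusted p ran from 0.00275 to 0.238 over them, with 5 under the threshold. These 5 were the fits without scaling, with a filter of 10 counts in 3 libraries, with the replicate number as a block, without EGME library 2 and with the DESeq2 Wald test. Over all features edgeR called 8.18% without scaling, 4.11% with that filter and 10% with the block. Scaled to the piRNA counts, the difference was -1.57 (edgeR adjusted p = 0.0601).

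The entry piR-64201 belongs to a run of 5 members with consecutive numbers, piR-64198 to piR-64202. The next in size, piR-64200, had 9, 18 and 21 reads with water and 4, 13 and 10 with EGME (log2 difference -0.68, edgeR adjusted p = 0.450). The remaining 3 had at most 6 reads in any water or EGME library and did not pass the filter. Summed, the run gave 97.3, 168 and 182 CPM with water and 55.8, 55.0 and 57.6 with EGME. In the other table it gave 153, 71.3 and 80.2 CPM with oil and 124, 204 and 202 with CBZ. Beside these values, tRNA fragments as a class made up 27.7%, 41.7% and 45.6% of the counts with water, 13.8%, 30.02% and 16.05% with EGME, 34.5%, 21.7% and 35.8% with oil and 37.0%, 43.5% and 37.8% with CBZ. The part of tRNA fragments in the piR-64201 result was not tested.

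The second lowest p for EGME was that of piR-65377, the fifth most abundant entry. It had 924, 908 and 725 CPM with water and 591, 240 and 457 with EGME. Every EGME library was below every water library, with a log2 difference of -0.96 (SE 0.347, edgeR adjusted p = 0.161). The scarcer piR-173027, with 25, 24 and 29 reads against 14, 11 and 16, was also lower in every EGME library (log2 difference -0.75, edgeR adjusted p = 0.274). On TMM-scaled CPM, 3 of the 20 tested members were lower without overlap, where 8.79% of all tested features were, and 1 was higher without overlap, against 9.7% of all. As shares of the piRNA counts 2 were lower, piR-64200 and piR-64201, against 18.5% of all features, and 0 were higher, against 2.73%.

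Among the scarcer entries with the smallest p, 3 were higher with EGME, each with its highest CPM in EGME library 1. The entry piR-62142 had 15, 9 and 10 reads with water and 31, 16 and 19 with EGME (log2 difference 1.16, SE 0.444, edgeR adjusted p = 0.178). It was the 1 member higher without overlap on TMM-scaled CPM, while on plain CPM EGME library 2, at 12.9, fell among the water libraries at 9.28 to 16.8. In piR-64738 the reads were 16, 10 and 12 against 30, 13 and 25, and in piR-87274 they were 47, 23 and 19 against 80, 20 and 59. Their log2 differences were 1.03 (edgeR adjusted p = 0.226) and 1.06 (0.292), with overlapping libraries on plain CPM. With upper quartile scaling edgeR called piR-62142, piR-64738 and piR-87274, and 10.3% of all features. Their log2 differences were then 1.502, 1.38 and 1.37, where the median of all features was at 0.31.

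Smaller differences from water were those of piR-67084 (0.47, edgeR adjusted p = 0.510), piR-64531 (0.39, 0.584) and piR-181182 (-0.13, 0.873). The abundant entries gave 0.23 (SE 0.467) for piR-63429, 0.42 (SE 0.552) for piR-63455, 0.44 (SE 0.555) for piR-63454 and -0.46 (SE 0.439) for piR-64122, with edgeR adjusted p from 0.584 to 0.839. With the SE close to or above the difference, changes of about this size could not be told from none. Without EGME library 2 the signs of the first 3 turned, to -0.16, -0.28 and -0.27.

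**Figure D4:**
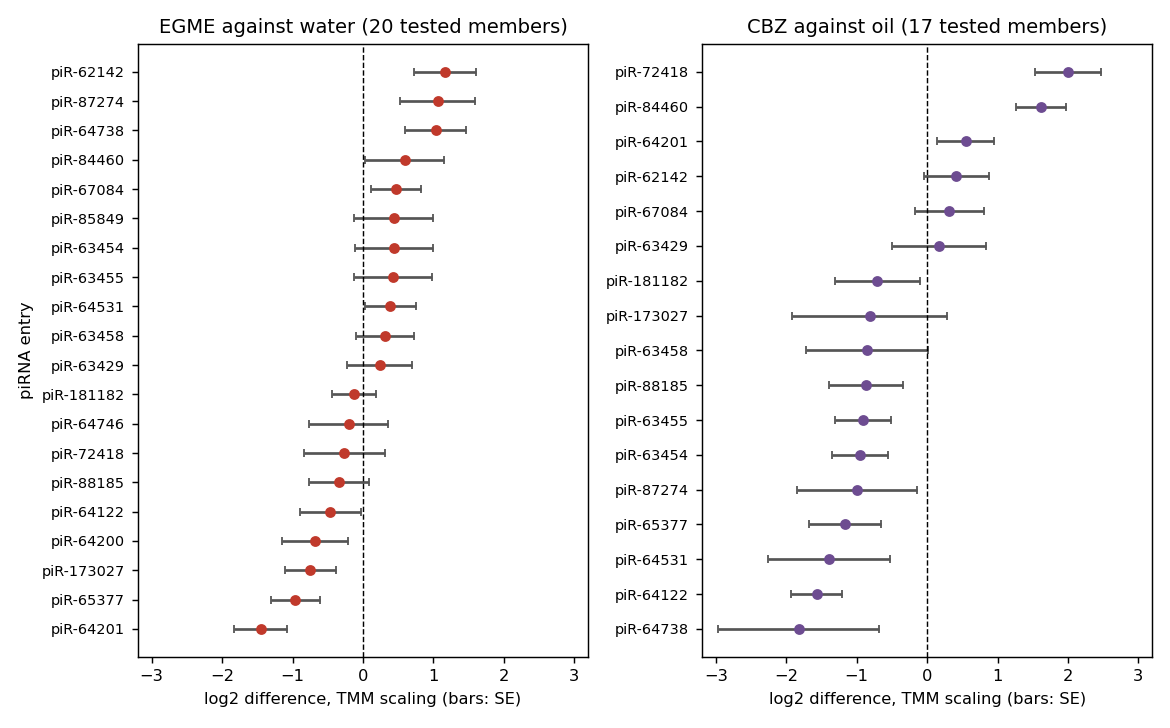
Log2 difference with TMM scaling (horizontal axis, bars are SE) of each tested piRNA entry (vertical axis) for EGME against water on the left, with 20 members, and for CBZ against oil on the right, with 17. On the left piR-64201 lies lowest at -1.45, and on the right piR-72418 lies highest at 2.00.

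For CBZ against oil 17 of the 41 members passed the filter and 24 were left out by it. The edgeR test called 0 of the 17, and 0% of all 244 tested features, with 3 members at an unadjusted p under 0.05 against 26.2% of all features. The DESeq2 Wald test called 5, piR-84460 as higher and piR-64122, piR-63454, piR-63455 and piR-65377 as lower, where it called 9.84% of all features. On the authors' normalized values limma called 0 of the 41 members, and 0% of all features, with either pseudocount. Without the filter edgeR called 0 of the 41, and 1.23% of all features. The median log2 difference was -0.86, with 6 members higher and 11 lower, against 0.12 over all features. Without oil library 2, in which 19 members had their highest level, the median was 0.06 with 10 higher and 7 lower, against 0.09 over all features, and edgeR called 2, against 10.1% of all. The low median for CBZ thus rested on that library.

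The entries with the smallest p for CBZ lay in both directions. The scarce piR-84460 had 6, 5 and 18 reads with oil and 42, 32 and 33 with CBZ, or 15.3, 25.5 and 30.1 CPM against 94.8, 77.9 and 81.3. The lowest CBZ library was well above the highest oil library, and the log2 difference was 1.61 (SE 0.356, edgeR adjusted p = 0.133). For piR-72418 the reads were 5, 1 and 7 against 32, 13 and 19, again without overlap (log2 difference 2.00, SE 0.470, edgeR adjusted p = 0.133). Without oil library 2 edgeR called piR-84460 (1.57, adjusted p = 0.0323), while piR-72418 stayed above the threshold (1.78, adjusted p = 0.0518). Over its 19 alternatives the adjusted p of piR-84460 ran from 0.0323 to 0.401, and the DESeq2 Wald test was the other setting to call it (0.0414). That of piR-72418 ran from 0.0518 to 0.401, with none given by the Wald test. With water and EGME both entries overlapped between the groups, at 76.1, 30.9 and 25.6 against 135, 16.2 and 58.8 CPM for piR-84460 and at 15.7, 6.18 and 31.4 against 19.7, 13.8 and 5.76 for piR-72418.

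On the lower side stood piR-64122, with 2208, 1277 and 4918 reads with oil and 1500, 1002 and 815 with CBZ. The log2 difference was -1.57 (SE 0.360, edgeR adjusted p = 0.133), from 6781 ± 1322 to 2611 ± 705 CPM. Over 19 alternatives the adjusted p ran from 0.000381 to 0.401, and 3 of them were under the threshold, the DESeq2 Wald test, the fit of all 12 libraries (5.2% of all features called) and the fit without oil library 2 (0.0125). The neighbours piR-63454 (-0.95, SE 0.399, edgeR adjusted p = 0.192) and piR-63455 (-0.91, SE 0.404, adjusted p = 0.224) were lower as well. For piR-65377 the levels were 318, 967 and 222 CPM with oil and 266, 214 and 249 with CBZ. Its log2 difference of -1.17 (edgeR adjusted p = 0.222) became -0.40 without oil library 2.

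Among miRNAs of other cell types, the red blood cell list (5 of its 6 names listed) summed to 15283 to 17714 CPM with oil and 13308 to 14319 with CBZ, so that it was lower in every CBZ library. In the first table it was higher in every EGME library, at 17071 to 28606 against 15020 to 16649 with water. The sum was mostly miR-486, with 84292 reads in the first table and 32209 in the second. The next, miR-451-5p, had 15253 and 3806. Among all tested features on TMM-scaled CPM, 9.7% were higher without overlap with EGME and 15.2% were lower without overlap with CBZ. Both liver miRNAs were listed and summed to 908 to 1476 CPM with oil and 1485 to 3999 with CBZ, and they overlapped between water (670 to 2140) and EGME (1393 to 2015). The 5 platelet and leukocyte miRNAs summed to 1578 to 1873 CPM with oil, 1848 to 2274 with CBZ, 1503 to 2025 with water and 1215 to 2383 with EGME. The part of these cell types in the piRNA values was not tested.

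The libraries of the other named members overlapped between oil and CBZ on TMM-scaled CPM. Their log2 differences were 0.17 (SE 0.664) for piR-63429, 0.55 (SE 0.409) for piR-64201, 0.42 for piR-62142, 0.31 for piR-67084, -0.87 for piR-88185, -0.71 for piR-181182, -1.39 for piR-64531 and -0.996 for piR-87274, with edgeR adjusted p from 0.329 to 0.881. Without oil library 2 the last 2 entries were at 0.05 and 0.60. The value of piR-63429 turned on the oil libraries, at 1.29 without library 1 (edgeR adjusted p = 0.0651), -0.24 without library 2 and -0.18 without library 3. Scaled to piRNA counts piR-63429 was higher with CBZ by 0.84 (SE 0.425, edgeR adjusted p = 0.256). As shares of the piRNA counts 6 of the tested members were higher without overlap, piR-63429, piR-64201, piR-62142, piR-67084, piR-72418 and piR-84460, against 20.5% of all tested features. Lower without overlap were 3, piR-63454, piR-63455 and piR-64122, against 7.38%. On TMM-scaled CPM 2 members were higher without overlap, against 19.7% of all, and 3 were lower, against 15.2%.

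**Figure D5:**
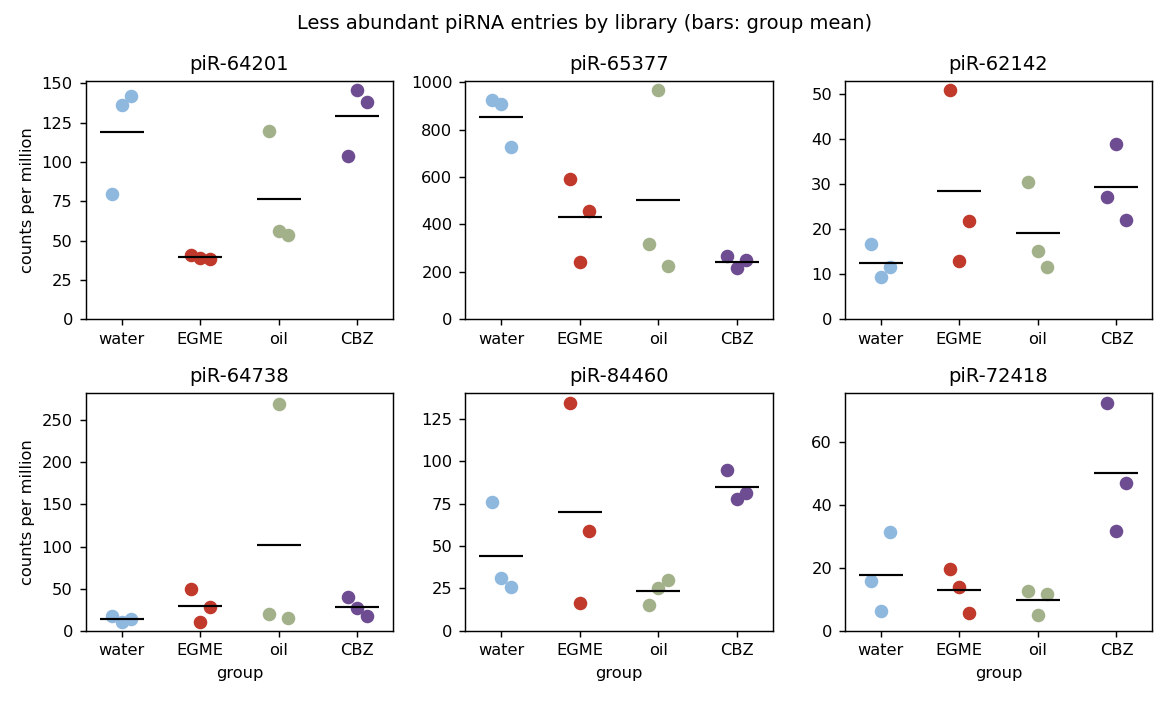
CPM of all assigned counts (vertical axes) for 6 less abundant piRNA entries in the 4 groups (horizontal axis), where points are libraries and bars are group means. The entry piR-64201 lies at 38.0 to 41.1 with EGME against 79.4 to 142 with water, piR-84460 at 77.9 to 94.8 with CBZ against 15.3 to 30.1 with oil, and oil library 2 stands alone for piR-64738 at 270 CPM.

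Whether an entry responded differently to the treatments was tested as the EGME effect minus the CBZ effect over all 12 libraries, on features named in both raw tables. Of 21 members tested edgeR called 0, and 0% of all 327 features. The count was 5 members at an unadjusted p under 0.05, against 24.8% of all features, and the DESeq2 Wald test called 1 member, against 9.79% of all. The 5 are named after their values were seen. The entry piR-64201 had the lowest p, with a difference of -1.92 between the effects (SE 0.562, edgeR adjusted p = 0.0507). All 23 alternatives kept this sign and 8 put it under the threshold, with adjusted p from 0.0161 to 0.152. These were DESeq2 size factors (7.65% of all features called), no scaling (8.56%), piRNA counts as library size (9.48%), the Wald test, and the fits without EGME library 2 (5.63%), oil library 1 (15.9%), oil library 2 (10.9%) or both EGME library 2 and oil library 2 (11.9%). Without oil library 3, where 11.7% of all features were called, piR-64738 (3.23) and piR-64531 (2.16) were past the threshold instead. The fit without oil library 1 called piR-64738 as well as piR-64201. Values for the others were -2.17 (SE 0.861) for piR-72418, 2.91 (SE 1.202) for piR-64738, 1.46 (SE 0.667) for piR-63454 and 1.22 (SE 0.570) for piR-64122, with edgeR adjusted p from 0.157 to 0.198. With EGME library 2 and oil library 2 both left out, a setting added after seeing the data, edgeR called piR-64201 (-1.85, adjusted p = 0.0373) and piR-64122 (1.53, adjusted p = 0.0401), and piR-64738 was at 1.08.

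Of the 53 members 17 fall into 6 runs of consecutive numbers, the abundant pair piR-63454 and piR-63455 among them, and 36 stand alone. In the run piR-80133 to piR-80135 the reads in water libraries 1, 2 and 3 and EGME libraries 1, 2 and 3 were 5, 3, 4, 3, 1 and 6 for the first, 5, 2, 3, 2, 1 and 6 for the second and 5, 4, 3, 2, 0 and 5 for the third. The entry piR-143247, far off in number, gave 6, 3, 4, 3, 1 and 6. Such series are nearly the same, and each may count the same reads again. Among members with at most 30 reads, 4 of 5 pairs at most 2 apart in catalogue number had counts within 2 reads of each other in every water and EGME library, against 15.6% of the other 205 pairs. With oil and CBZ it was 5 of 6 pairs, against 6.15% of the other 130. Among members averaging 20 or more reads per library, none had a near-identical partner in another RNA class. Near-identical here means counts that differ in no library by more than 5% or 3 reads. Most members were scarcer and so outside this check.

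Some scarce entries were seen in 1 library above all. The entry piR-64556 had 35 of its 38 reads of the second table in oil library 2, piR-63447 27 of 39 and piR-63181 17 of 24, although that library was the shallowest. In that table piR-64556 and piR-63181 passed the limit only through oil library 2, so their high share there is partly set by the limit. The run piR-64450 to piR-64452 summed to 12.7, 10.2 and 20.1 CPM with oil and 36.1, 46.2 and 51.7 with CBZ, with 5, 2 and 12 reads against 16, 19 and 21. These counts are too few for the filter, and the entries of the run may count some of the same reads. The groups did not overlap, but piR-64450 and piR-64451 passed the limit through their CBZ reads, which favours a higher sum with CBZ. Of all tested features 19.7% were higher with CBZ without overlap on TMM-scaled CPM. That share is for single features that passed the filter, so it is not a like background for this sum. Of the 12 members that passed the limit only with water and EGME, 3 were not listed in the oil and CBZ table. All 5 that passed only with oil and CBZ had 2 to 8 reads in the first table.

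The features whose levels moved most like the abundant entries were other RNA classes as well as piRNAs. Over the 6 water and EGME libraries, on log2(CPM + 1), piR-63429 was closest to piR-63454 (Pearson r = 0.963), an rRNA transcript (0.960) and piR-63455 (0.956). Over the oil and CBZ libraries its 3 closest features were rRNA transcripts (0.988, 0.986 and 0.985). The pair piR-63455 and piR-63454 were closest to each other in both tables (0.999 and 0.996). With oil and CBZ the next closest to both was miR-144-3p, an erythroid miRNA (0.979 and 0.975). Outside the entries fixed for this description, piR-64122 was closest to precursor transcripts of the Ensembl miRNA class (0.969 and 0.958), and piR-64201 to a LysCTT tRNA gene in the first table and a ValAAC tRNA gene in the second (0.984 and 0.980). Libraries in such a comparison share depth, RNA make-up and the difference between groups, and the closest of 223 and 191 features are high by selection.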

How the data were processed

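Small RNA of serum exosomes was sequenced in 12 libraries, grouped and numbered by their titles. No label ties a library to its own animal, so a p-value here reflects library-to-library spread, which may be partly technical. The authors deposited whole-number raw counts per feature, in 1 table for water and EGME (3280 features) and 1 for oil and CBZ (1709). They also deposited a normalized signal, which within a library is the raw count times 1 constant, for miRNA, piRNA and tRNA features above 10 summed counts. The submitters' processing notes name edgeR. The sources used here do not name the aligner or genome build, nor how reads matching several entries were treated (not given). No sequences are printed.

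Raw counts of all features were tested with edgeR 4.0.16 (R 4.3.3, quasi-likelihood, robust, TMM, filterByExpr with a minimum count of 10), with adjustment over all features, and only piRNA rows are given. Each SE is the log2 difference divided by the root of its F statistic. Single shares were compared by exact permutation tests (scipy 1.17.1). Alternatives were other scalings and filters, DESeq2 1.42.0, limma 3.58.1 on log2(normalized + 1) and + 5, a replicate block, near-identical features counted once, all libraries in 1 fit, and each library left out. The fits were tested on simulated counts. Named entries are the 10 with the highest mean share of piRNA counts, the 5 higher and 5 lower tested entries with the smallest p in each comparison, any called entry and those at the limit. The members and lists were chosen with earlier results of these data known.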

Additional observations from a re-analysis of the deposited data

How the results depend on the processing

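The count of called piRNAs was 0 in all 3 comparisons, where 0% of all features were called. For EGME it became 3 with upper quartile scaling (10.3% of all features called) and 1 without a scaling factor (8.18%). It was 1 with 10 counts in 3 libraries (4.11%) and 1 with the DESeq2 Wald test (5.45%). With any library left out it was 0 to 4, the 4 without EGME library 2 (16.5%). For CBZ it became 5 with the DESeq2 Wald test (9.84% of all features) and 1 with all 12 libraries in 1 fit (5.2%). With a library left out it was 0 to 2, the 2 without oil library 2 (10.1%). For the difference between the effects it became 1 with DESeq2 size factors (7.65% of all features) and without a scaling factor (8.56%). It was also 1 with piRNA counts as library size (9.48%) and with the DESeq2 Wald test (9.79%). The count was 0 to 2 with a library left out, and 2 without EGME library 2 and oil library 2 (11.9%). It was 1 without EGME library 2 (5.63%), 2 without oil library 1 (15.9%), 1 without oil library 2 (10.9%) and 2 without oil library 3 (11.7%). The cause was not tested.

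The piRNA share with EGME minus water, 0.0431 percentage points, turned to -1.94 of the miRNA and piRNA counts, to -2.52 with near-identical features once and to -0.0344 without piR-63429, and ran from -0.966 to 0.761 with a library left out. With the most abundant feature of the table left out of the total it was 3.64 (exact permutation p = 0.1). With CBZ minus oil, -2.76, it was -4.57 without piR-63429 (exact permutation p = 0.1) and ran from -5.60 to 2.40 with a library left out. The share of the 3 most abundant piRNAs, 6.64 with EGME, was -0.0101 for the 10 most abundant. Over 264, 266 and 115 alternative values of named entries (EGME, CBZ and the difference) the sign turned in 6, 6 and 0. These were piR-63429 with EGME (-0.0837 with miRNA counts as library size) and piR-181182 (0.23 with upper quartile scaling), and with a library left out piR-63429 (-0.16 to 0.57), piR-63455 (-0.28 to 0.89), piR-63454 (-0.27 to 0.90) and piR-181182 (-0.17 to 0.0261). With CBZ they were piR-63429 (-0.24 to 1.29), piR-64531 (-1.89 to 0.0484), piR-181182 (-1.11 to 0.0618), piR-67084 (-0.0810 to 0.841) and piR-87274 (-1.46 to 0.596).

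Whether libraries of the same number are paired cannot be settled with 3 libraries per group. Same-numbered deviations correlated at 0.46, 0.43 and -0.13 for EGME and -0.22, -0.04 and 0.31 for CBZ. For EGME, numbers 1 and 2 crossed gave -0.54 and -0.41, but not every library correlated best with its own number. With the replicate block edgeR called 1 piRNA for EGME, piR-64201, and 0 for CBZ and for the difference between the effects. Over all features the block called 33 of 330 for EGME, 0 of 244 for CBZ and 11 of 327 for the difference. Without the block it was 0 in each. The filter on low counts left out 28 of 48 and 24 of 41 members. Without it edgeR called 0 of 48 and 0 of 41.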
